A study of Mus musculus with 18 samples.

Results

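En1 and 9 further transcription factor genes that lay out the early nervous system were followed across 3 lines of mouse P19 cells. The genes were En1, En2, Gbx2, Pax2, Pax6, Otx1, Sox1, Sox3, Sox11 and Zic2, which are 10 of the 55450 genes in the expression table. They were taken by symbol as a functional group, and En1 was chosen because it was far higher in HM than in WT cells in these same samples. The En1 values that involve HM are therefore a description and carry no test.

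P19 is an embryonic carcinoma line, a tumour-derived stem cell that keeps many features of the early embryo. WT cells carry intact Dicer, the enzyme that cuts hairpin precursors into miRNAs. HetKO cells, labelled Dicer (+/-), have a truncating change in 1 allele, and HM cells, labelled Dicer (HM/-), have in addition a hotspot missense change in the RNase IIIb domain of the remaining allele. HetKO was grown from a clone and HM was then made from HetKO, so a difference that follows the genotype and a difference that arose while cells were cloned cannot be told apart. The HetKO samples were also numbered apart from WT and HM at deposition and titled in another style. Whether all were sequenced together is not stated, so a difference that involves HetKO cannot be told apart from one in handling. Poly(A)-selected mRNA was sequenced from 6 samples of each line, 18 in all, and the labels do not say whether these were separate cultures, so that the spread between them may be technical. Values are TPM, a transcript level corrected for length and scaled to a total of about 1000000 in each sample, which keeps no read depth.

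Within each line the samples were matched into the 3 pairs that resembled each other most over 683 abundant genes, none of them among the 10 studied here. The pairs were replicates 1 and 4, 2 and 5, and 3 and 6 in WT and in HetKO, and replicates 1 and 4, 2 and 3, and 5 and 6 in HM. In HetKO and HM every pair was closer than any other combination of samples. In WT the pairing was less clear. The robust SD of log2 differences was 0.0746 for replicates 1 and 4, against 0.073 for the closest combination outside the pairs. Results are given over the 6 samples, and for a named gene whose call was lost with the 3 pair means as replicates, the adjusted p of that fit is given too. Pou5f1 (Oct4), the central factor of the embryonic carcinoma state, had mean levels of 2088, 2095 and 2040 TPM in WT, HetKO and HM, and all 12 markers listed for that state were expressed highly enough to be tested. Between HM and WT 58.3% of these markers passed the test described below for En2, beside 51.4% of all genes. Among the markers 5 rose in HM (L1td1, Fgf4, Utf1, Sox2 and Lin28a) and 2 fell, Nanog by 1.24 and Sall4 by 1.83 on the log2 scale, and with pair means Lin28a and Sall4 no longer passed (adjusted p = 0.141 and 0.0996 from limma). Dicer1 itself had mean levels of 52.3, 48.0 and 40.3 TPM in the same order, and its RNA level does not report on the point mutation.

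Engrailed, Gbx, Pax, Otx, Sox and Zic proteins bind DNA and divide the neural plate and neural tube into territories. En1 and En2 are closely related homeobox repressors that mark the midbrain-hindbrain boundary, where Pax2 helps to switch En genes on, Gbx2 marks the hindbrain side and Otx factors mark the forebrain and midbrain side. Pax6 specifies eye, forebrain and ventral neural tube. Sox1 and Sox3 belong to the SoxB1 group that keeps neural progenitors undifferentiated, Sox11 is a SoxC factor of young neurons and precursors, and Zic2 is a zinc-finger factor of the early neural plate and dorsal neural tube. Sox3 and Zic2 are also expressed in pluripotent epiblast-like cells, before any neural tissue forms.

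The 10 genes lie on 9 chromosomes, with only En1 and Gbx2 sharing chromosome 1. En1 (ENSMUSG00000058665.8) spans chr1:120602418-120607992 on the plus strand of GRCm38 and has 2 exons, and Gbx2 (ENSMUSG00000034486.8) spans chr1:89927956-89931179 on the minus strand. En2 (ENSMUSG00000039095.8) spans chr5:28165694-28172166 on the plus strand, also with 2 exons. Sox3 (ENSMUSG00000045179.9) at chrX:60891366-60893430 and Sox11 (ENSMUSG00000063632.6) at chr12:27334264-27342574, both on the minus strand, have a single exon, as has Sox1 (ENSMUSG00000096014.1) at chr8:12395295-12400126 on the plus strand. Zic2 (ENSMUSG00000061524.8) spans chr14:122475435-122479852 on the plus strand. Pax2 (ENSMUSG00000004231.15) lies at chr19:44756045-44837871 and Pax6 (ENSMUSG00000027168.21) at chr2:105668900-105697364, both on the plus strand, and Otx1 (ENSMUSG00000005917.15) at chr11:21994764-22002897 on the minus strand.

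The Dicer mutation acts on miRNAs, so the 3′ UTRs of the 10 genes were searched for the 7 bases that pair with positions 2 to 8 (the seed) of 10 miRNA strands followed in the study. Those for which a member held a match on the sense strand are shown, from RefSeq (GRCm38.p6), 5′ to 3′, with the seed in capitals. A 5p strand comes from the left arm of the hairpin and a 3p strand from the right arm.
miR-15b-5p: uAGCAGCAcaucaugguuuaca
miR-16-5p: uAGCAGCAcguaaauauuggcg
miR-7a-5p: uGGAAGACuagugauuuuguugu
miR-26a-5p: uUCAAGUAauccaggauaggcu
miR-7a-1-3p: cAACAAAUcacagucugccaua
miR-17-3p: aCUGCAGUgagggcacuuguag
miR-20b-3p: aCUGCAGUgugagcacuucuag
miR-15b-5p and miR-16-5p share the seed AGCAGCA, and miR-17-3p and miR-20b-3p share CUGCAGU, so a match to either pair cannot be assigned to a single miRNA.

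En1, the member with the largest difference, held none of these matches in its annotated 3′ UTR of 803 bases. Sox3 (712 bases), Zic2 (609 bases), Gbx2 (664 bases) and Pax2 (1844 bases) held none either. Among 12038 genes that averaged 1 TPM or more and had an annotated 3′ UTR, 45.2% held a match to at least 1 of the 5p strands searched and 35.6% to at least 1 of the 3p strands. En2 had a single match, to TGCTGCT, a 7-base word found in 24.9% of those genes. Sox11, whose 3′ UTR of 6957 bases is far longer than the median of 1190 bases, had 6 matches, all to 3p strands. These comprised 4 copies of ATTTGTT, found in 20.9% of genes, and 2 copies of ACTGCAG, found in 16.7%. The En2 site, both ACTGCAG sites of Sox11 and the ATTTGTT site nearest its stop codon are printed below in GRCm38 from the transcribed strand, with the match in capitals.
En2, chr5:28171947-28171975, plus strand: gaataaccatcTGCTGCTtgggggtcggt
Sox11, chr12:27340579-27340607, minus strand: cgatttcttaaACTGCAGggagcttgaaa
Sox11, chr12:27338959-27338987, minus strand: gcaagacaggcACTGCAGatagagagctc
Sox11, chr12:27340047-27340075, minus strand: ctatagtagagATTTGTTcaatatttgta
Otx1 held 2 overlapping copies of TGCTGCT, Pax6 held 1 match to miR-7a-5p and 2 to miR-7a-1-3p, and Sox1 held 1 match to miR-26a-5p. A match is a description of the sequence, and the levels of these miRNAs were not analysed here.

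The start of En1 is rich in CpG, the dinucleotide at which DNA is methylated. Its RefSeq window of 300 bases, from 250 before to 50 after the start, holds 23 CpG, against a median of 7 over 32851 windows, and 21.5% of all windows hold as many or more. The 181 bases of that window that lie before the annotated gene, chr1:120602237-120602417 on the plus strand of GRCm38.p6, hold 15 CpG and are shown with each in capitals.
En1 upstream: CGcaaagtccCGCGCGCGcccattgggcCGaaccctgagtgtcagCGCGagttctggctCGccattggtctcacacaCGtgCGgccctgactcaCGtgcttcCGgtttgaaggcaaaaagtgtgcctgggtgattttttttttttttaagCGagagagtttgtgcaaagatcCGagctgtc
Windows were matched by symbol for 6 of the 10 genes. Gbx2 had 27 CpG, Sox1 had 37, Sox11 had 21, the 2 Pax6 windows had 18 and 16 and the 3 Pax2 windows had 7, 23 and 30. DNA methylation was not measured in these samples.

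En1 was low in WT, lower on average in HetKO, and several times higher in HM. WT replicates 1 to 6 had levels of 1.52, 0.88, 0.67, 1.98, 1.15 and 0.63 TPM, a mean of 1.14 ± 0.529 (SD, n = 6). HetKO replicates had 0.22, 0.84, 0.39, 0.26, 0.72 and 0.46 TPM, a mean of 0.482 ± 0.25 (SD, n = 6). HM replicates had 2.89, 17.82, 18.06, 3.69, 9.40 and 9.05 TPM, a mean of 10.2 ± 6.60 (SD, n = 6). Every HM sample lay above every sample of the other lines, the lowest HM value being 1.46 times the highest WT value and 3.44 times the highest HetKO value. The ratio of means was 8.92 for HM over WT and 21.1 for HM over HetKO. On the log2(TPM + 1) scale, where a difference understates the change of low genes, the HM minus WT difference was 2.17 (standard error 0.38), and 7 of 14043 genes had a larger one. Without HM replicates 2 and 3, the highest pair, it was 1.66 and 56 genes had a larger one, and with a pseudocount of 0.1 in place of 1 that number was 25. Without HM replicates 1 and 4, the lowest pair, it was 2.74. HetKO and WT values overlapped. With genes down to a mean of 0.1 TPM included, HetKO was at -0.51 (standard error 0.16, adjusted p = 0.0735 from limma), which did not pass the threshold, and without WT replicates 3 and 6 it was at -0.68 with an adjusted p of 0.0371 from limma.

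En2, the paralogue of En1, followed the same order of lines, with all HetKO samples below all WT samples. Its WT levels were 3.66, 2.37, 1.60, 4.21, 2.32 and 1.61 TPM (mean 2.63 ± 1.08, SD, n = 6). HetKO levels were 0.34, 0.61, 0.75, 0.46, 0.77 and 0.58 TPM (mean 0.585 ± 0.166, SD, n = 6), all below the lowest WT sample. HM levels were 4.93, 16.24, 16.98, 7.74, 5.10 and 5.56 TPM (mean 9.43 ± 5.66, SD, n = 6), all above the highest WT sample. The 3 lines thus did not overlap in En2. Mean En2 was 3.59 times higher in HM than in WT, 4.49 times higher in WT than in HetKO, and 16.1 times higher in HM than in HetKO. Each of these differences passed the test on log2(TPM + 1) with limma and Benjamini-Hochberg adjustment over all genes. The log2 fold change was 1.41 for HM against WT (standard error 0.31, adjusted p = 0.00236), -1.15 for HetKO against WT (standard error 0.19, adjusted p = 0.00192) and 2.56 for HM against HetKO (standard error 0.28, adjusted p = 4.16e-05). En2 reached at most 0.77 TPM in HetKO, so it passed the filter of 1 TPM in the comparisons with HetKO only through the other line. With the pair means as replicates, the comparisons with HM still passed (adjusted p = 0.0483 against WT and 0.0207 against HetKO from limma) and the fall in HetKO did not (0.192). Without HM replicates 2 and 3, the HM against WT value was 0.95 and still passed (adjusted p = 0.00408 from limma).

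**Figure D1:**
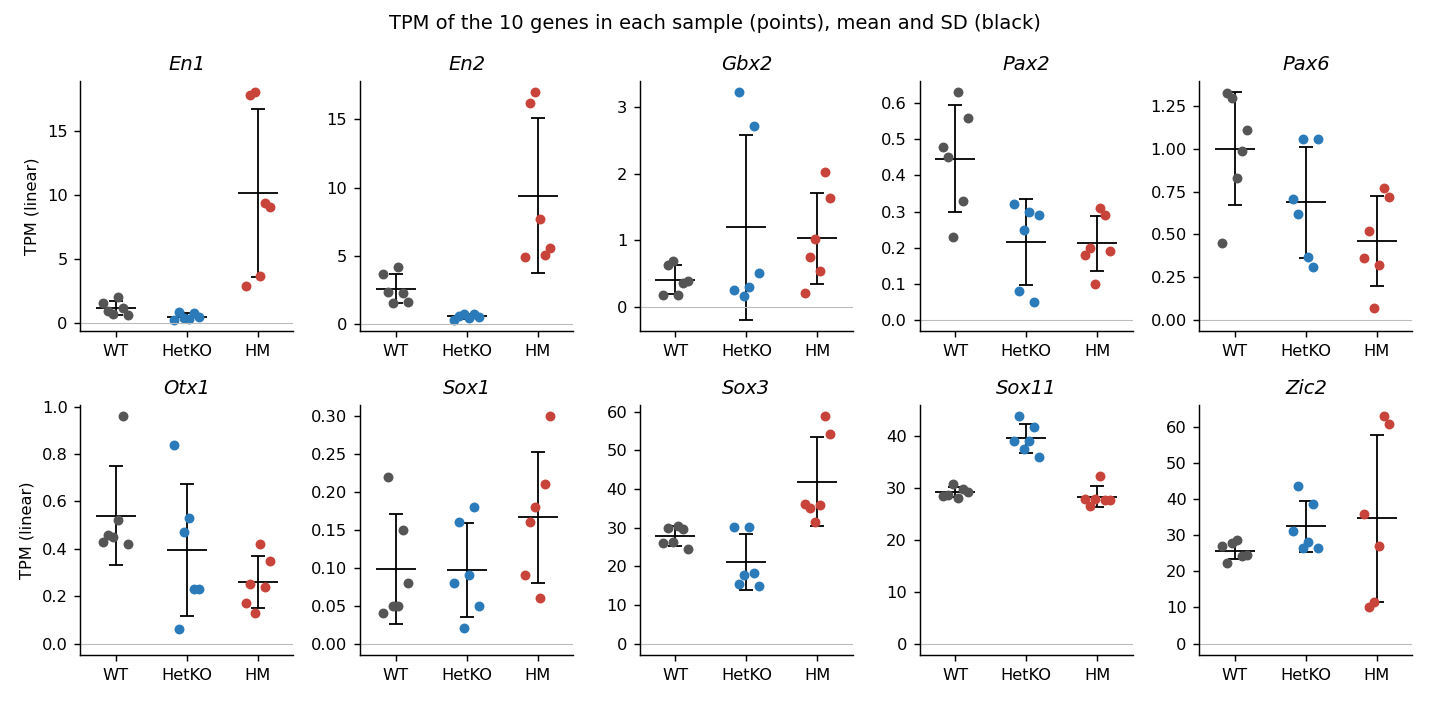
Level in TPM on a linear axis for each of the 10 genes in WT, HetKO and HM. Points are the 6 samples in replicate order, and black marks are the mean and SD. En1 and En2 in HM lie wholly above WT and HetKO, Sox11 in HetKO lies wholly above both other lines, and Pax2, Pax6, Otx1 and Sox1 stay at or under 1.33 TPM in every sample.

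Inside the HM line En1 and En2 shared their highest pair of samples but not the order of the other pairs. The pair of HM replicates 2 and 3 was highest for both, with pair means of 17.9 TPM for En1 and 16.6 TPM for En2. Replicates 5 and 6 came next for En1, at 9.23 TPM, yet were lowest for En2, at 5.33 TPM. Replicates 1 and 4 had 3.29 TPM of En1 and 6.34 TPM of En2. In HM, En1 was above En2 in 4 samples and below it in replicates 1 and 4. In all 6 WT samples and in 5 of the 6 HetKO samples En2 was above En1, the exception being HetKO replicate 2, with 0.84 TPM of En1 against 0.61 of En2.

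**Figure D2:**
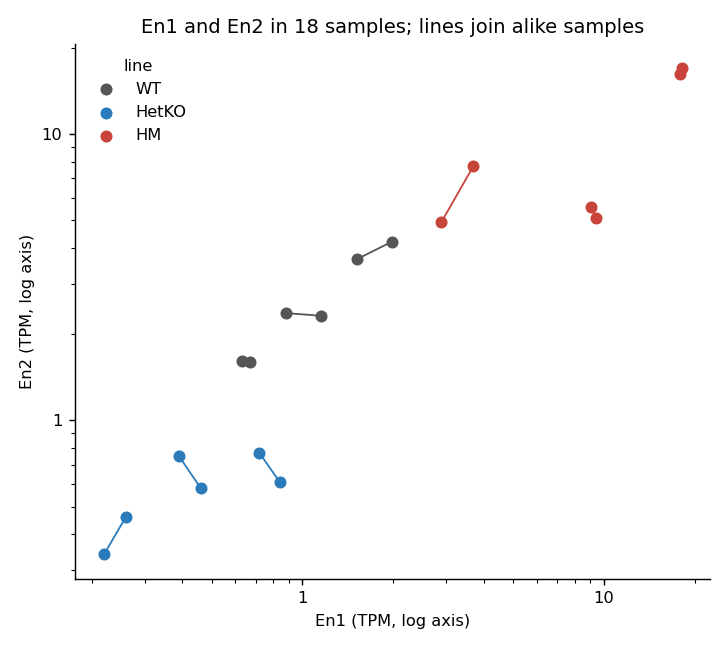
En1 against En2 in TPM, both on log axes, for the 18 samples, coloured by line, with the 2 samples of each alike pair joined. The lines occupy separate ranges of En2, and HM spreads over 2.89 to 18.06 TPM of En1.

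Across the 18 samples En2 ranked 7 among 12177 genes for likeness to En1, with a Pearson correlation of log2(TPM + 1) of 0.92. The ranking took genes that averaged 1 TPM or more over the 18 samples. It left out gene model names (Gm followed by digits, or ending in Rik). The correlation spans 3 lines whose means differ, so it is a description of a shared pattern across lines and pairs. The 5 most alike genes were Xlr3c (0.96), Zfp131 (0.96), Adar, which encodes an RNA-editing enzyme (0.96), Larp7, which stabilizes the 7SK small RNA (0.95) and Med14, a Mediator subunit (0.93). Adar had a mean level of 21.6 TPM in WT, 21.3 in HetKO and 33.5 in HM, and Larp7 had 70.6, 67.1 and 125 TPM. The 5 least alike were Hsd17b11 (-0.97), Cnrip1 (-0.97), AC098880.1 (-0.97), Bbs5, a component of the ciliary BBSome (-0.96) and Serpinh1, a collagen chaperone (-0.96). Serpinh1 had a mean level of 87.9 TPM in WT, 96.6 in HetKO and 4.37 in HM. Of the other members that were abundant enough, Sox3 stood at 0.65, Zic2 at -0.22 and Sox11 at -0.65. None of the 5 most alike genes was a midbrain or hindbrain regulator from the lists described later.

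The genes around En1 were read for their levels, with no test. Within 500 kb of the En1 start the annotation holds 14 other genes, of which 4 averaged 1 TPM or more. Dbi, which encodes the diazepam-binding inhibitor, had mean levels of 285, 270 and 279 TPM in WT, HetKO and HM, with overlapping samples. The closest expressed gene, C1ql2, 259 kb away, had 1.74, 4.87 and 1.80 TPM. Steap3, a metalloreductase gene 330 kb away, had 22.3, 13.1 and 5.93 TPM, and its HM samples (3.27 to 8.53 TPM) all lay below its WT samples (11.64 to 29.65 TPM). The gene 3110009E18Rik had 10.4, 9.17 and 11.8 TPM, the same order of means as En1 but with small differences and overlapping samples. Marco and 7 noncoding or pseudogene transcripts (1700012E03Rik, Gm29346, Gm29345, Gm29344, Gm29348, Gm29347 and Gm37043) were listed at 0 or at most 0.03 TPM in every sample. 2610027F03Rik, a lincRNA 13.7 kb beyond En1, reached 0.2 TPM in a single HM sample, and Celrr reached 0.31 TPM in WT.

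**Figure D3:**
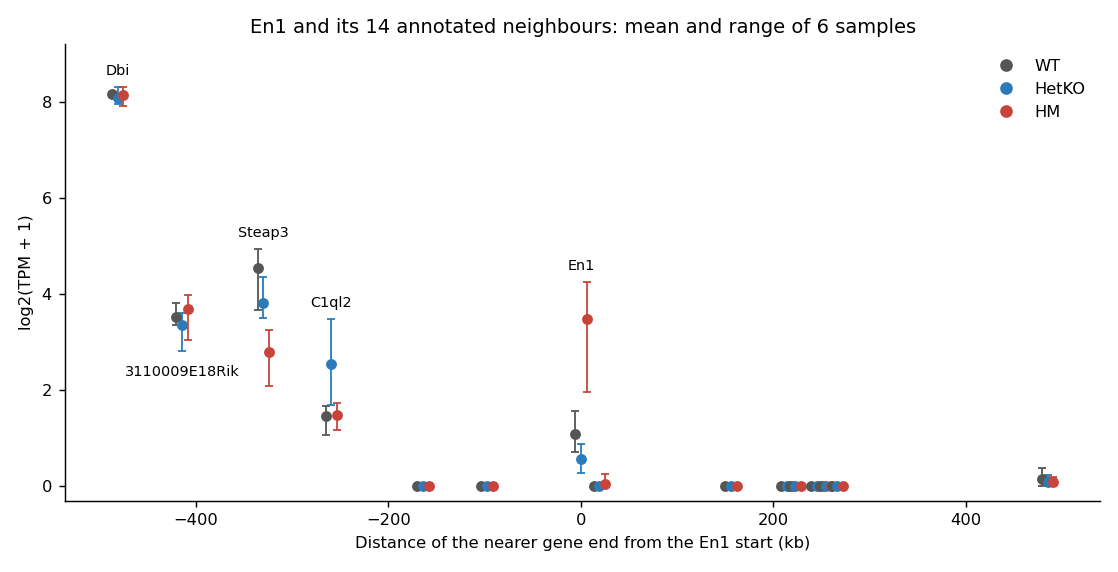
Mean level (points) and range over 6 samples (bars) of En1 and its 14 annotated neighbours on the log2(TPM + 1) scale, placed by the distance in kb of the nearer gene end from the En1 start and coloured by line, with the lines shifted sideways for legibility. En1 is highest in HM, Steap3 is lowest in HM, and the genes between C1ql2 and Celrr other than En1 are at or near 0 in all lines.

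Sox3, the SoxB1 factor shared by pluripotent and neural progenitor cells, was also higher in HM. WT levels were 26.04, 29.80, 26.22, 30.53, 29.67 and 24.48 TPM (mean 27.8 ± 2.51, SD, n = 6). HetKO levels were 30.20, 15.29, 17.77, 30.26, 18.15 and 14.98 TPM (mean 21.1 ± 7.18, SD, n = 6). HM levels were 36.14, 35.08, 31.52, 35.74, 58.84 and 54.14 TPM (mean 41.9 ± 11.5, SD, n = 6). All HM samples were above all WT and HetKO samples, the lowest HM value by a margin of 1.03 times over the highest WT value. HM replicates 5 and 6 stood well above the other 4, and HetKO replicates 1 and 4 sat at the WT level while the other 4 lay below it. By limma the log2 fold change was 0.54 for HM against WT (standard error 0.14, adjusted p = 0.00726) and 0.98 for HM against HetKO (standard error 0.21, adjusted p = 0.00433). Neither passed with pair means (adjusted p = 0.0839 and 0.113 from limma), and the first fell to 0.31 without HM replicates 5 and 6. HetKO against WT was at -0.44 (adjusted p = 0.123 from limma), and without HetKO replicates 1 and 4 it was at -0.71 and passed (adjusted p = 0.00088 from limma).

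Sox11 stood apart in HetKO. Its WT levels were 28.50, 28.68, 30.74, 27.99, 29.85 and 29.26 TPM (mean 29.2 ± 1.00, SD, n = 6) and its HM levels were 27.93, 26.46, 27.83, 32.19, 27.71 and 27.56 TPM (mean 28.3 ± 1.99, SD, n = 6). HetKO levels were 39.03, 43.82, 37.54, 39.05, 41.79 and 35.91 TPM (mean 39.5 ± 2.87, SD, n = 6), above every sample of the other lines. HetKO was 1.35 times WT and 1.40 times HM. By limma HetKO differed from WT by 0.42 on the log2 scale (standard error 0.06, adjusted p = 0.000573) and HM from HetKO by -0.47 (standard error 0.07, adjusted p = 0.000354). With pair means neither passed (adjusted p = 0.199 and 0.081 from limma). HM against WT was at -0.05 (adjusted p = 0.522 from limma), and its sign turned under median centring (0.13) and quantile normalization (0.04), so no direction is given. The HM and WT levels of Sox11 thus differed by less than the spread between samples. Whether its seed matches bear on any of these differences was not tested.

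Zic2 had a similar mean in HetKO and HM, but the spread in HM was wide. WT levels were 27.04, 22.31, 27.87, 28.64, 24.26 and 24.54 TPM (mean 25.8 ± 2.45, SD, n = 6). HetKO levels were 31.30, 43.66, 26.42, 28.20, 38.75 and 26.41 TPM (mean 32.5 ± 7.18, SD, n = 6). HM levels were 35.83, 10.11, 11.61, 27.06, 63.02 and 60.74 TPM (mean 34.7 ± 23.1, SD, n = 6). HM replicates 2 and 3, the pair with the most En1, had the least Zic2, and replicates 5 and 6 had more than any other sample. No comparison passed the test: HM against WT was at 0.11 (adjusted p = 0.833 from limma), HetKO against WT at 0.30 (adjusted p = 0.139 from limma) and HM against HetKO at -0.19 (adjusted p = 0.741 from limma). HetKO against WT was at 0.12 without HetKO replicates 2 and 5, and at 0.43 without HetKO replicates 3 and 6, where it passed (adjusted p = 0.0357 from limma). Without HM replicates 2 and 3, HM against WT was at 0.75 and passed (adjusted p = 0.0116 from limma), and without replicates 5 and 6 it was at -0.45 (adjusted p = 0.252 from limma). The HM mean of Zic2 thus combined pairs that lay on opposite sides of WT.

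**Figure D4:**
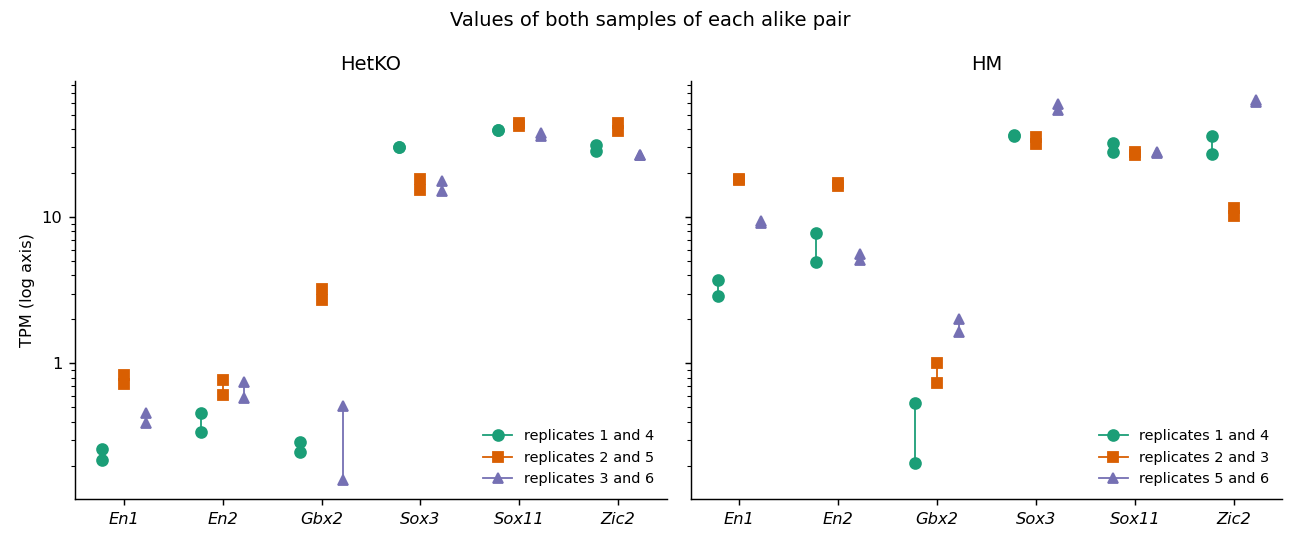
Level in TPM, on a log axis, of En1, En2, Gbx2, Sox3, Sox11 and Zic2 in HetKO and HM, with both samples of each alike pair drawn in the same colour and joined. In HM the pair of replicates 2 and 3 is highest for En1 and En2 and lowest for Zic2, and the pair of replicates 5 and 6 is highest for Sox3 and Zic2.

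Gbx2, the hindbrain-side factor, was at the edge of detection in most samples and stood out in a single HetKO pair. WT levels were 0.18, 0.62, 0.69, 0.17, 0.36 and 0.39 TPM (mean 0.402 ± 0.217, SD, n = 6). HetKO levels were 0.25, 3.22, 0.16, 0.29, 2.72 and 0.51 TPM (mean 1.19 ± 1.39, SD, n = 6), with replicates 2 and 5 well above every other HetKO sample. HM levels were 0.21, 0.74, 1.01, 0.54, 2.02 and 1.63 TPM (mean 1.03 ± 0.684, SD, n = 6). HetKO against WT was at 0.44 with genes down to 0.1 TPM included (adjusted p = 0.415 from limma) and at -0.10 without HetKO replicates 2 and 5. On the same filter HM against WT was at 0.48 (adjusted p = 0.0805 from limma), and without HM replicates 1 and 4 at 0.73, which passed (adjusted p = 0.00738 from limma). Gbx2 overlaps 946 bases of D130058E05Rik on the opposite strand, which had mean levels of 0.148, 0.537 and 0.367 TPM in WT, HetKO and HM. The libraries were made with a stranded kit, but the use of strand in counting is not given in the sources used here, so reads of the 2 genes may not be fully separated.

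The remaining 4 genes were barely expressed. Pax2 had levels of 0.48, 0.45, 0.23, 0.63, 0.33 and 0.56 TPM in WT, 0.32, 0.08, 0.25, 0.30, 0.05 and 0.29 in HetKO, and 0.18, 0.20, 0.10, 0.31, 0.29 and 0.19 in HM. Its mean in WT was 2.11 times that in HM and 2.08 times that in HetKO. Pax6 had 0.45, 1.33, 1.30, 0.83, 0.99 and 1.11 TPM in WT, 0.71, 0.62, 1.06, 0.37, 0.31 and 1.06 in HetKO, and 0.36, 0.52, 0.07, 0.32, 0.77 and 0.72 in HM. Both therefore had their highest mean in WT, and the samples of the lines overlapped. Otx1 had 0.43, 0.46, 0.45, 0.52, 0.96 and 0.42 TPM in WT, 0.84, 0.06, 0.47, 0.53, 0.23 and 0.23 in HetKO, and 0.17, 0.25, 0.13, 0.42, 0.24 and 0.35 in HM. Sox1, the most specific neural plate marker among the 10, stayed at or under 0.3 TPM in all 18 samples, with means of 0.0983, 0.0967 and 0.167 TPM in WT, HetKO and HM. These levels are far below that of Sox3, its SoxB1 relative. Pax2 overlaps the antisense transcripts Gm20395 and 1700039E22Rik and the miRNA gene Mir6405, and Pax6 overlaps Pax6os1. Sox1 lies within Sox1ot and contains Gm25239, and En2 overlaps Gm43610. All of these were listed at 0 to 0.18 TPM.

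With genes down to a mean of 0.1 TPM included, Pax2, Pax6 and Otx1 were called lower in HM than in WT. The log2 fold changes were -0.25, -0.46 and -0.28, with adjusted p of 0.0278, 0.0251 and 0.031 from limma. At that filter 5 of the 9 members other than En1 were called, beside 39.8% of the 20152 genes tested. These 3 calls held with the unequal-variance test and with a pseudocount of 0.1, but not under all settings. With pair means the adjusted p from limma was 0.13, 0.129 and 0.123, and none of the 3 passed after quantile normalization or median centring. No low member passed at this filter in HetKO against WT, where 8.4% of all genes did, or in HM against HetKO, where 26.1% did.

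At the filter of 1 TPM, 4 of the 9 members other than En1 could be tested between HM and WT. En2 and Sox3 passed, both higher, and Zic2 and Sox11 did not. Over all genes tested in that comparison 51.4% passed, 19.4% higher and 32% lower in HM, so 2 calls among 4 is a share near that background. Between HetKO and WT 4 of the 10 members could be tested and En2 (lower) and Sox11 (higher) passed, beside 10.2% of all genes, 3.71% higher and 6.44% lower. Between HM and HetKO 5 of 9 could be tested and En2 and Sox3 (higher) and Sox11 (lower) passed, beside 34.6% of all genes, 14% higher and 20.6% lower. The comparisons share samples, so these counts are not independent of each other. En2 entered both comparisons with HetKO only through its level in the other line. With pair means the members passing were En2 alone in both comparisons with HM and none between HetKO and WT, where the backgrounds were 24.3%, 3.3% and 0.25%. Counted by samples that do not overlap, En2 and Sox3 lay wholly above WT in HM (28.5% of all genes did not overlap in either direction), En2 and Sox11 were separate in HetKO against WT (8.21%), and En2, Sox3 and Sox11 were separate in HM against HetKO (15.5%). All genes together had a median of -0.09 on the log2 scale in HM against WT, so member values are to be read from that level.

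**Figure D5:**
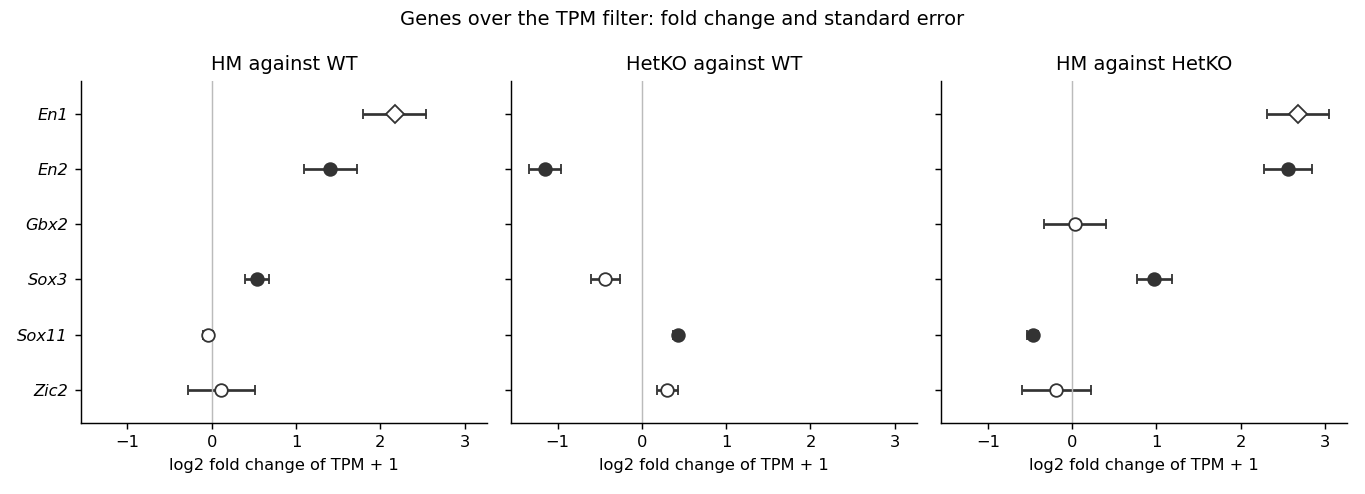
Log2 fold change of TPM + 1 with its standard error for the members that passed the filter of 1 TPM in each of the 3 comparisons. Filled circles passed an adjusted p of 0.05 from limma, open circles did not, and open diamonds mark En1, which was chosen on these samples and was not tested. En2 is positive against both lines in HM and negative in HetKO against WT.

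The genes that work beside En1 at the midbrain-hindbrain boundary moved in both directions in HM. Their summed level was 453 to 522 TPM in WT, 360 to 535 in HetKO and 552 to 657 in HM, so that HM lay wholly above WT. Of 17 listed organizer genes, 10 could be tested between HM and WT, of which 3 rose and 1 fell, and the median of the 10 was -0.01 on the log2 scale, beside -0.09 for all genes. The 4 of 10 called stand beside 51.4% of all genes, and after centring or quantile normalization 4 rose and 0 fell. Those that rose were Spry2 (2.00, adjusted p = 3.34e-05 from limma), Dusp6 (1.84, adjusted p = 3.55e-05 from limma) and Etv4 (0.89, adjusted p = 2.71e-05 from limma), which are feedback or effector genes of FGF signalling. Other genes of that kind on the list did not pass, with Etv5 at 0.00, Spry1 at -0.13 and Il17rd at -0.27. Fgf8, the organizer signal itself, fell, with a log2 fold change of -0.79 (adjusted p = 0.0247, and 0.121 with pair means, from limma). Its mean level was 6.41 TPM in WT, 28.0 in HetKO and 3.20 in HM, and its HetKO samples ranged from 2.11 to 60.35 TPM. Wnt1, the other classical signal of this boundary, was at or under 0.08 TPM in every sample, and Fgf17 at or under 0.17 TPM. Pax5, the paralogue of Pax2 in this territory, had means of 0.348, 0.102 and 0.0867 TPM in WT, HetKO and HM, and Lmx1b had 0.967, 0.412 and 0.573 TPM. Higher means in HM than in WT were found for Sp8 (0.28, 2.90 and 1.23 TPM) and Fgf18 (0.187, 0.207 and 0.667 TPM). With genes down to 0.1 TPM included, 15 organizer genes could be tested between HM and WT, and 5 rose and 1 fell. That is 40% called, beside 39.8% of all genes. Between HM and HetKO, 4 organizer genes rose and Fgf8 fell, with a median of 0.35 beside -0.05 for all genes. These 5 of 10 tested stand beside 34.6% of all genes. With pair means 1 rose and 0 fell there, and after centring 6 rose and 0 fell. Between HetKO and WT none rose and Il17rd (-0.51) and Spry1 (-0.31) fell, 2 of 10 tested beside 10.2% of all genes. Neither of these 2 genes passed with pair means (adjusted p = 0.461 and 0.496 from limma). Otx2, abundant in embryonic carcinoma cells, was at 203, 167 and 201 TPM, and it did not pass between HM and WT (-0.01, adjusted p = 0.877 from limma).

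Regulators of other neural territories were mostly near 0. Of 15 forebrain and eye field genes, Lhx2 alone could be tested between HM and WT and it did not pass (0.07, adjusted p = 0.727 from limma). Of 17 dorsoventral genes 5 could be tested, and Nkx6-2, a ventral homeobox repressor, rose by 1.49 (adjusted p = 8.14e-06 from limma) from a mean of 1.04 TPM to 4.69 TPM. Gli2, a transducer of Hedgehog signals, fell by 0.47 (adjusted p = 0.0123, and 0.135 with pair means, from limma), and no gene of this list was called lower after centring or quantile normalization. Of 11 hindbrain and caudal genes 2 could be tested, and Egr2 (Krox20) rose by 0.66 (adjusted p = 9.62e-05 from limma). Of 9 midbrain dopaminergic genes 2 could be tested and Drd2 fell by 0.45 (adjusted p = 0.0144, and 0.133 with pair means, from limma), a call also lost after centring and quantile normalization. Drd2 had a mean of 1.325 TPM in WT and 0.718 TPM in HM, so it passed the filter of 1 TPM only through WT. The share called between HM and WT was 40% of the dorsoventral genes tested and 50% each of the hindbrain and dopaminergic genes tested. Over all genes it was 51.4%. Between HetKO and WT no gene of these 4 lists passed, where 10.2% of all genes did.

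Some neural progenitor and neuronal genes were lower in HM, and their shares are set here beside those of all genes. Of 13 progenitor genes 9 could be tested between HM and WT, and 5 fell and none rose. That is 55.6% called, near the 51.4% called over all genes in either direction, of which 32% were lower and 19.4% higher. The median of the 9 was -0.47 on the log2 scale. The largest falls were Notch1, the receptor that maintains progenitors (-1.02, adjusted p = 4.28e-05 from limma), and Prom1, encoding a progenitor surface protein (-0.995, adjusted p = 9.35e-05 from limma). After centring each sample on its median 2 of the 9 passed, as with pair means, and 3 passed after quantile normalization. Of all genes 20.5% were called lower with centring, 15.9% with pair means and 24.8% with quantile normalization. Of 13 proneural and neuronal genes 8 could be tested, and Map2 (-1.08, adjusted p = 8.25e-05 from limma) and Ncam1 (-0.80, adjusted p = 0.000719 from limma) fell, with a list median of -0.22. These 2 of 8 are a smaller share than that of all genes, and after centring or quantile normalization 1 neuronal gene was called higher. With genes down to 0.1 TPM included, 1 progenitor gene was called higher. The proneural genes Neurog1 and Neurog2 were at or under 0.32 TPM in every sample. Nes, encoding the progenitor filament nestin, was at 24.0, 26.3 and 27.0 TPM and did not pass between HM and WT (0.09, adjusted p = 0.693 from limma).

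Among 19 paralogues of the 10 genes, 10 could be tested between HM and WT, of which 3 rose and 1 fell, with a median of 0.23. The 40% of paralogues called were fewer than the 51.4% of all genes. Sox14, a SoxB2 factor, rose by 0.94 (adjusted p = 0.00278 from limma), from a mean of 3.66 TPM to 7.97 TPM. Sox2, the SoxB1 partner of Sox3 in pluripotent and neural cells, rose by 0.66 (adjusted p = 1.95e-05 from limma), with means of 98.6, 114 and 157 TPM in WT, HetKO and HM. Sox4, the SoxC relative of Sox11, rose by 0.26 and Sox12, a further SoxC gene, fell by 0.26 on the log2 scale (adjusted p = 0.00322 and 0.0181 from limma). Neither passed with pair means (adjusted p = 0.0765 and 0.156 from limma), and no paralogue was called lower after centring or quantile normalization. Zic1 had 11.96, 3.64 and 17.7 TPM, falling in HetKO against WT (-1.56, adjusted p = 0.00164, and 0.143 with pair means, from limma), and its HM samples ranged from 2.73 to 43.05 TPM. Of 11 symbols listed as Engrailed cofactors, which are the Pbx homeobox partners and the Groucho (Tle) corepressors, 10 were in the expression table. All 10 could be tested, with 1 rising and 3 falling in HM against WT. That is 40% called, beside 51.4% of all genes. Tle1 fell by 0.60 (adjusted p = 1.37e-05 from limma), Pbx4 fell by 0.58 (adjusted p = 0.0106, and 0.0907 with pair means, from limma), and Pbx3 rose by 0.34 (adjusted p = 0.000454 from limma). With pair means Tle1 was the only cofactor that still fell. Between HetKO and WT none of the cofactors passed, where 10.2% of all genes did.

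Markers of other cell types were read beside these results. The summed level of 8 neural crest markers was 22.7 to 31.9 TPM in WT, 32.4 to 49.95 in HetKO and 37.7 to 56.3 in HM, with Foxd3 and Twist1 rising in HM against WT. These 2 of 4 tested are a share near the 51.4% called over all genes. With genes down to 0.1 TPM included, 7 could be tested, and 2 rose and 2 fell, beside 39.8% of all genes called. The defining crest gene Sox10 was at 0.352 TPM in HM against 1.12 in WT, and Tfap2b was at or under 0.09 TPM in every sample. Sox9 was at 0.257 TPM in HM against 1.47 in WT. The sum of 12 mesoderm and endoderm markers was 16.7 to 26.2 TPM in WT, 12.9 to 197 in HetKO and 31.8 to 66.8 in HM, with T (brachyury) and Eomes accounting for most of it and Afp at or under 0.04 TPM. Of these 12, 5 could be tested between HM and WT and all passed, 3 higher and 2 lower, beside 51.4% of all genes. With pair means 2 were higher and 1 lower, beside 24.3% of all genes called. Tbx6 and Gata6 had means of 2.76 and 1.88 TPM in WT, and 0.86 and 0.597 TPM in HM. Both therefore passed the filter of 1 TPM only through WT. The sum of 8 fibroblast markers was 34.8 to 66.6 TPM in WT, 11 to 41.7 in HetKO and 25.6 to 49.0 in HM. The sum of 12 embryonal carcinoma markers was 3308 to 3796 TPM in WT, 3216 to 4009 in HetKO and 3714 to 4325 in HM. In bulk RNA, a few cells with much En1 and many cells with a little cannot be told apart, and the part of these other cell types in the En1, En2 and Sox3 values was not tested.

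The alike pairs differed in En1 and several other members. In HM, 99.2% of the variance of log2(TPM + 1) of En1 lay between pairs, 94.0% for En2, 97.3% for Sox3, 98.4% for Zic2 and 91.5% for Gbx2, beside a median of 78.6% over all expressed genes. In HetKO the figures were 97.1% for En1, 76.5% for En2, 94.5% for Sox3, 94.4% for Zic2 and 97.5% for Gbx2, beside 87.6%. In WT they were 91.8% for En1, 98.5% for En2, 63.9% for Sox3, 71.4% for Zic2 and 71.0% for Gbx2, beside 73.7%. Lower shares were found for Sox11 in HM (49.8%), Pax2 in WT and HM (31.8% and 38.9%) and Otx1 in WT and HM (40.7% and 25.1%). The 2 samples of a pair therefore differed in En1 far less than the pairs of a line did.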

How the data were processed

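Poly(A) mRNA of 18 P19 samples, 6 each of WT, HetKO and HM, had been sequenced in paired-end mode from stranded libraries. The authors merged read pairs with BBMerge and quantified genes with RSEM, and deposited TPM with 2 decimals, while the submitters' processing notes name cutadapt, STAR and the mm10 build without versions. TPM keeps no depth, so no counting interval could be set. Groups came from the sample labels. All 55450 identifiers matched a GENCODE annotation of GRCm38. Differences in log2(TPM + 1) were fitted by limma 3.58.1 (R 4.3.3) for genes that averaged 1 TPM or more in the 12 samples compared, with a variance trend and Benjamini-Hochberg adjustment over all genes at 0.05. Python 3.11.15 and pandas 2.3.3 did the rest. The fit was tested on simulated data with independent samples and no alike pairs, so its error rate with such pairs was not tested.

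The genes named were all members, the 5 genes most and least like En1, genes within 500 kb of En1 or overlapping a member, and the largest changes of each list, with further list genes and markers named after their values were seen. The members and lists were chosen with earlier results of these data known. The study states an unequal-variance test for single values, used here as an alternative, beside another pseudocount (0.1), filters of 0.1 and 5 TPM, median centring, quantile normalization, a fit of all 18 samples, a replicate block, pair means and leaving out each pair. Combinations of the 0.1 TPM filter with these were added after seeing the data. The miRNA libraries were not analysed here.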

Additional observations from a re-analysis of the deposited data

Results flagged for a closer look

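In each group of 6 samples, the gap between the most extreme sample and its nearest neighbour was compared with the range of the group, for the 10 genes in 3 lines. Of these 30 groups 2 had a sample that stood apart, where chance would give about 1.5. Otx1 in WT reached 0.96 TPM in replicate 5, with the other samples between 0.42 and 0.52 TPM. Sox11 in HM reached 32.19 TPM in replicate 4, with the others between 26.46 and 27.93 TPM.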

How the results depend on the processing

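Of 450 recomputed log2 fold changes of the members and Dicer1, 397 kept both their sign and their call, 30 lost a call, 8 gained one, 14 turned sign and 1 moved by more than the replicate spread (En1, HM against HetKO, 3.94 with a pseudocount of 0.1). En1 in HM against WT ranged from 1.66 to 2.74 when pairs were left out. Using pair means, the genes called numbered 3414 (HM against WT), 35 (HetKO against WT) and 454 (HM against HetKO), against 7220, 1421 and 4765, and the members called numbered 1, 0 and 1, against 2, 2 and 3. In HM against WT, the 0.1 TPM filter called 5 members. In HetKO against WT, the 5 TPM filter called 1 member, which dropped En2 from the test. The genes called in HetKO against WT were 852 with the unequal-variance test, 2510 without HetKO replicates 3 and 6, 693 without WT replicates 2 and 5, and 835 without WT replicates 3 and 6. In HM against HetKO they were 2797 without HM replicates 5 and 6 and 2883 without HetKO replicates 3 and 6. The cause of these shifts was not tested.

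Signs turned only for values that had not passed. Zic2 in HM against WT was at -0.45 without HM replicates 5 and 6, and in HM against HetKO at 0.45 without HM replicates 2 and 3. Sox11 in HM against WT was at 0.13 centred and 0.042 quantile normalized. Gbx2 in HM against HetKO was at -0.24 without HM replicates 5 and 6, -0.25 without HetKO replicates 1 and 4 and -0.22 without HetKO replicates 3 and 6, and in HetKO against WT at -0.10 without HetKO replicates 2 and 5. At the 0.1 TPM filter in HM against HetKO, Pax2 was at 0.10 centred, 0.055 with a pseudocount of 0.1, and 0.037, 0.057 and 0.034 without HM replicates 2 and 3, HetKO replicates 1 and 4, and HetKO replicates 3 and 6, while Otx1 was at 0.0197 without HetKO replicates 1 and 4. The higher share of called genes in HM against WT went from 37.7% to 61% with centring and 51.1% with quantile normalization, in HetKO against WT from 36.5% to 50.7% and 48.1%, and in HM against HetKO from 40.4% to 60.9% and 49.3%, and the median of all genes in HM against WT from -0.09 to 0.08 and 0.02.

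Replicate numbers did not pair the samples: the correlation of same-numbered samples averaged 0.00512, 0.0621 and 0.0206. With a replicate block, 6889, 1206 and 4200 genes and 2, 2 and 3 members were called. Of 117 recomputed list counts 77 stayed within 1.5 times. TPM keeps no depth, so the precision of genes under 1 TPM is unknown.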
